A study of Saccharomyces cerevisiae with 21 samples.

Results

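Small nucleolar RNA (snoRNA) genes are largely hidden in a count table of protein-coding features. Of the 6600 counted features of budding yeast, 12 overlap a snoRNA gene on their own strand, and 10 of these are the members described here. The members were listed with earlier results of these data known, since RPS22B and YGL088W had been noted in the comparison of the unstressed IDR mutant with wild type. That comparison is given below as a description, and the p-values of the other comparisons are not independent evidence. The reference annotation held 76 snoRNA genes, of which 0 had a feature of their own and 12 were overlapped by a feature on the same strand. Of those 12 features, RPL7A and RPL7B are outside the list and serve as comparators. Of the 10 members, 6 are intron-containing hosts (RPS22B, NOG2, IMD4, ASC1, EFB1 and TEF4) that hold the whole snoRNA gene in an intron, and 4 are short intronless features (YGL088W, YJL047C-A, YMR013W-A and IRC13) that share bases with it. A snoRNA gene of the H/ACA class lies in 3 members, of the C/D class in 6, and the U3 gene in 1.

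SnoRNAs guide the chemical modification of ribosomal RNA in the nucleolus, the C/D class by methylation of ribose and the H/ACA class by conversion of uridine to pseudouridine, and a few, U3 among them, are needed to cut the ribosomal RNA precursor. In yeast most are transcribed from genes of their own, while some are cut out of the intron of a host gene after splicing and debranching of the intron. Mature snoRNAs have no poly(A) tail, whereas precursors and forms on their way to decay can carry a short one. Nab2 is a nuclear poly(A) RNA-binding protein.

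The counted RNA was poly(A)-selected from strain BY4742 (MAT alpha, his3Δ1 leu2Δ0 lys2Δ0 ura3Δ0), in which NAB2 was replaced at its own locus by a version fused to the green fluorescent protein yEGFP, with the HISMX marker, in all 3 strains. The IDR mutant lacks residues 104 to 263 of Nab2 (its QQQP and RGG stretches) and carries the SV40 nuclear localization signal, the interface mutant carries F450A, and wild type carries the tagged unaltered protein. Whole cells were sampled in each strain after 24 h without glucose (starved) or in mid-log growth with 2% glucose (unstressed), with n = 2 libraries in each of 6 groups, and nuclear extracts of starved cells with n = 3 libraries in each of 3 groups. Whether libraries of a group came from separate cultures is not stated, and p-values therefore speak only of library-to-library spread, possibly technical. Values are shares of the sequenced poly(A) RNA, and the RNA content of a cell was not measured. Nuclear libraries also had 6 rows of spike-in sequences, with 56277 to 200633 counts in the libraries used. These were left out of totals and not used for scaling.

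The whole cell libraries held 4815254 to 14069868 counts and 7 nuclear libraries 6353585 to 23138938, while nuclear wild type replicate 3 and nuclear interface mutant replicate 3 held 1079 and 3981 and were left out. Some libraries stood apart from their group. In unstressed wild type, NAB2 was at 49.8 CPM (counts scaled so that every library has the same total) in replicate 1 and at 201.3 CPM in replicate 2. In starved whole cells NAB2 was at 133.0 and 123.2 CPM in the IDR mutant, 234.5 and 356.5 CPM in the interface mutant and 370.4 and 380.0 CPM in wild type. In nuclear extracts it was at 277.4, 296.5 and 127.3 CPM in libraries labelled IDR mutant, at 119.1 and 330.6 CPM in libraries labelled interface mutant and at 414.4 and 431.3 CPM in wild type, so that 1 library labelled interface mutant was at the level of the starved IDR mutant and 2 labelled IDR mutant were not. Directions between the nuclear mutants are therefore those of the library labels.

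Where the features lie decides what their counts can hold. In RPS22B (YLR367W, chromosome XII, 855878 to 857317, plus strand, positions of the count files on R64) the snoRNA gene SNR44 takes 14.65% of the feature. It lies in an intron at 856575 to 857057. In NOG2 (YNR053C, chromosome XIV, 721120 to 723112, minus strand) SNR191 takes 13.75% of the feature, in the intron at 721771 to 722302. SNR44 and SNR191 are of the H/ACA class. The other hosts carry C/D snoRNA genes of 86 to 102 nt: IMD4 (YML056C, chromosome XIII, 162194 to 164176) holds SNR54, ASC1 (YMR116C, chromosome XIII, 499456 to 500688) holds SNR24, EFB1 (YAL003W, chromosome I, 142174 to 143160) holds SNR18, and TEF4 (YKL081W, chromosome XI, 282891 to 284455) holds SNR38. The counted feature runs from the first to the last base of each gene, so a host's count can hold reads of messenger RNA, of unspliced or excised intron and of the snoRNA, and these cannot be told apart in the counts.

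The intronless features are annotated open reading frames that cut across a snoRNA gene. YGL088W (chromosome VII, 345836 to 346201, plus strand) holds 150 nt upstream of SNR10 and its first 216 of 245 bases. YJL047C-A (chromosome X, 349044 to 349178, minus strand) holds bases 56 to 104 of the 104 bases of SNR60 and 86 nt downstream of it. YMR013W-A (chromosome XIII, 298311 to 298391, plus strand) lies wholly inside SNR73, over bases 5 to 85 of 106. IRC13 (YOR235W, chromosome XV, 779870 to 780184, plus strand) holds 237 nt upstream of SNR17A, a U3 gene of 490 nt, and its first 78 bases. No member overlaps another counted feature.

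**Figure D1:**
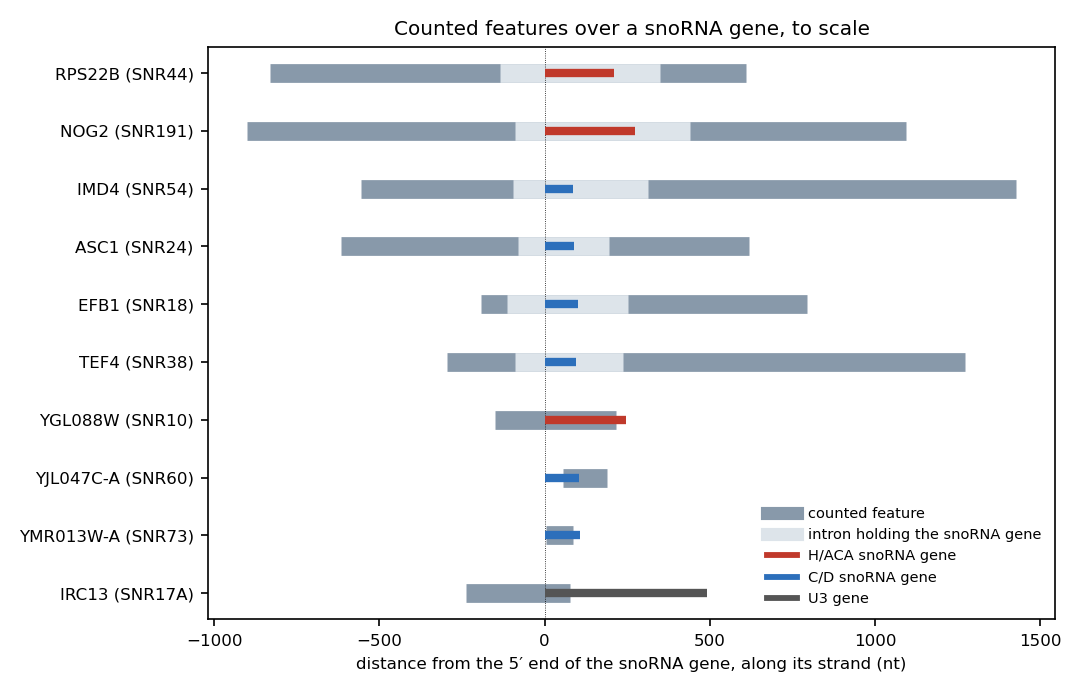
Map of the 10 counted features over a snoRNA gene, to scale, with distance in nt from the 5′ end of the snoRNA gene along its strand on the horizontal axis; grey bars are counted features, pale stretches the intron that holds the snoRNA gene, and coloured bars the snoRNA genes by class. The 6 hosts hold the whole snoRNA gene inside an intron, while the intronless features cover only part of theirs, from 78 of 490 bases in IRC13 to 216 of 245 in YGL088W.

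The snoRNA sequences of the 2 H/ACA hosts and of 1 C/D host, taken from the RefSeq genome sequence of assembly R64, are given here with the short motifs that mark each class. SNR44, from the intron of RPS22B, is at chrXII:856710-856920 (plus strand) and guides pseudouridylation in both ribosomal subunits. SNR191, from the intron of NOG2, is at chrXIV:721938-722211 (minus strand) and guides pseudouridylation of the large subunit. SNR18, from the intron of EFB1, is at chrI:142367-142468 (plus strand), guides methylation of the large subunit and is shown as the C/D contrast. Capitals mark ACA at exactly 3 bases from the 3′ end in H/ACA snoRNAs and, in C/D snoRNAs, TGATGA within the first 20 bases and CTGA within the last 20.
SNR44: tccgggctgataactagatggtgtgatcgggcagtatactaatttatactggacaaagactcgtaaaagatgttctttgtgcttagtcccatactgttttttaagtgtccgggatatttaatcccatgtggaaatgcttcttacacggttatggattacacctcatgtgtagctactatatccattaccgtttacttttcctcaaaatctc
SNR191: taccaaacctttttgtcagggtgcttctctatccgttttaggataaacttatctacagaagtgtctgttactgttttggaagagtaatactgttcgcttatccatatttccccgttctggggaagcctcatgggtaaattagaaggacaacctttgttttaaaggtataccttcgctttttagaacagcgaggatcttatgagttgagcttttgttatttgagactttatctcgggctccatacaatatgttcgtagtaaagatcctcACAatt
SNR18: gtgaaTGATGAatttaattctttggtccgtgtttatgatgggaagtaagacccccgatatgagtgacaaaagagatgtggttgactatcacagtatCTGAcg
ACA was found at that place in 2 of the 3 H/ACA members (SNR191 and SNR10, not in SNR44 as annotated), in 17 of the 76 snoRNA genes (22.4%) and in 1.72% of 243124 genome windows of 100 nt on both strands. TGATGA and CTGA were both at those places in 5 of the 6 C/D members (all but SNR24), in 36 of the 76 snoRNA genes (47.4%) and in 0.0576% of the windows. The motifs share no bases with each other.

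In the intronless features the part of the snoRNA that is counted is shown in capitals, since it bounds what their counts can hold. SNR10 (chrVII:345986-346230, plus strand) is needed to cut the ribosomal RNA precursor and guides a pseudouridylation. SNR60 (chrX:349130-349233, minus strand) and SNR73 (chrXIII:298307-298412, plus strand) guide methylation of the large subunit.
SNR10: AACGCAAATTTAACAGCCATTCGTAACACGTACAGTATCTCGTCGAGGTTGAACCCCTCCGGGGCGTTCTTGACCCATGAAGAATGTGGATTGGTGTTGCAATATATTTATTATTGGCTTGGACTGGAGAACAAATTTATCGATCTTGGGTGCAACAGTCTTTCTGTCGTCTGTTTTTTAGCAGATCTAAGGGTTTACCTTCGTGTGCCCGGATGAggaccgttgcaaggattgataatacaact
SNR60: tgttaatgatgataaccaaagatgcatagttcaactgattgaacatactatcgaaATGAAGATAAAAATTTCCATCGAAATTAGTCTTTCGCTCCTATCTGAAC
SNR73: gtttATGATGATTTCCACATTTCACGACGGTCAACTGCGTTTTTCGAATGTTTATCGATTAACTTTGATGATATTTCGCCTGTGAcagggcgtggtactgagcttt
The end of SNR10 that carries its ACA lies outside the counted feature of YGL088W. In YJL047C-A the counted bases hold the CTGA of SNR60 and not its TGATGA, and in YMR013W-A they hold the TGATGA of SNR73 and not its CTGA.

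Per length, the hosts spanned a wide range and the intronless features were not all minor. In the starved IDR mutant EFB1 led with 539.3 ± 6.65 CPM per kb of feature, TEF4 followed with 270.4 ± 13.5, ASC1 with 231.4 ± 22.8 and IMD4 with 92.6 ± 2.28 (SD, n = 2). In starved wild type EFB1 was at 701.0 ± 17.0 CPM per kb, ASC1 at 428.1 ± 29.7, TEF4 at 376.1 ± 10.7, YGL088W at 296.4 ± 59.0 and RPS22B at 273.4 ± 12.8 (SD, n = 2). Of these neighbours YGL088W and RPS22B lay within the SD of YGL088W, while the others were further apart than their SDs. In the starved IDR mutant YGL088W was at 44.7 ± 5.93 and RPS22B at 26.6 ± 3.43 CPM per kb (SD, n = 2), below the C/D hosts. IRC13 had 3 counts in all, 1 in each of 3 of the 21 libraries. The floor of 3 counts stood at 0.13 to 0.623 CPM in the libraries used, a limit that covers counting error only. IRC13 was not tested, and 9 of the 10 members passed the filter on low counts. YMR013W-A, with 5 to 27 counts in whole cell libraries, is the least precise of these.

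**Figure D2:**
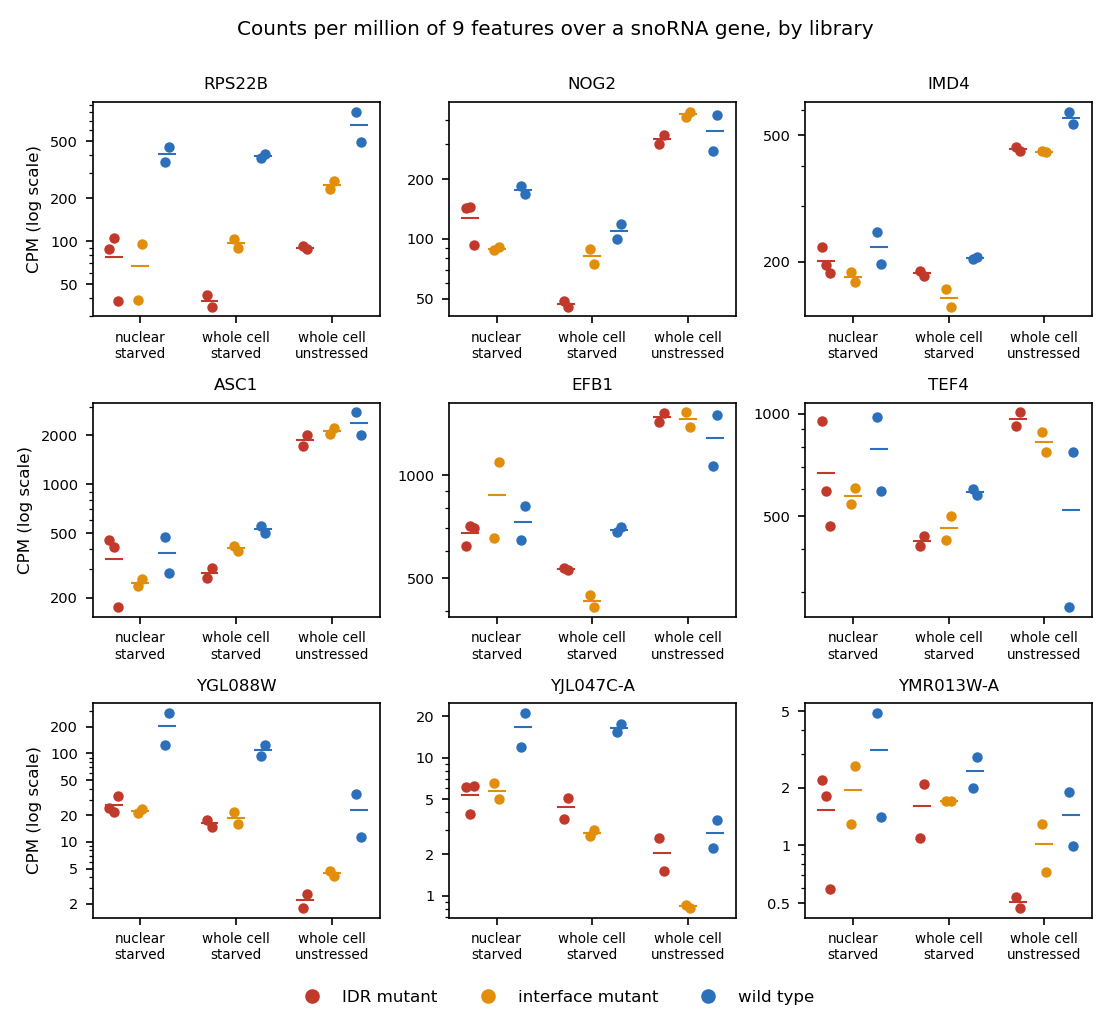
CPM of 9 members on a log axis, 1 panel each, with 1 point per library and a bar at the group mean; colours are strains, and fraction and condition run along the horizontal axis. In starved whole cells RPS22B sat at 34.8 to 103.4 CPM in the mutants and at 380.5 and 406.6 CPM in wild type, and YGL088W at 14.8 to 21.7 CPM in the mutants and at 93.2 and 123.8 CPM in wild type.

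The first comparison asked which members differ between the IDR mutant and wild type after starvation, in libraries other than the unstressed ones in which RPS22B and YGL088W had been noted. RPS22B, 1 of 2 genes for a protein of the small ribosomal subunit, was at 41.7 and 34.8 CPM in the starved IDR mutant, against 380.5 and 406.6 CPM in starved wild type. It was 9.10-fold lower (log2 change -3.19 ± 0.35 SE, edgeR quasi-likelihood adjusted p = 0.000442, over 5853 features). Only 1 of the 5853 features had a lower log2 change. YGL088W, which spans most of SNR10, was at 17.9 and 14.8 CPM in the IDR mutant, against 93.2 and 123.8 CPM in wild type (-2.55 ± 0.56, edgeR adjusted p = 0.00885). That call was lost without wild type replicate 2 (adjusted p = 0.0508) or without IDR mutant replicate 1 or 2 (adjusted p = 0.0563 and 0.0801), while the log2 change stayed between -2.66 and -2.34 in those fits.

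YJL047C-A, over the end of SNR60, was at 3.6 and 5.1 CPM in the starved IDR mutant, against 15.4 and 17.4 CPM in starved wild type (-1.73 ± 0.28, edgeR adjusted p = 0.00225). NOG2, a GTPase of large ribosomal subunit assembly, was at 48.4 and 45.6 CPM in the IDR mutant, against 100.3 and 119.2 CPM in wild type (-1.04 ± 0.15, edgeR adjusted p = 0.00133). RPS22B, YJL047C-A and NOG2 kept their calls with each of the 4 libraries left out and under each other alternative run. The libraries of the 2 strains did not overlap in any of the 4 features. This is a description, since the share of all features without overlap was not counted for this pair. In all, 4 of the 9 members tested were lower and 0 higher, where 13.3% of all features tested were called lower and 15.9% higher. By class, the 3 H/ACA members were all lower, and so was 1 of 6 C/D members, YJL047C-A. By structure, 2 of 6 hosts (median -0.50) and 2 of 3 tested intronless features (median -1.73) were lower, where the median of all features was 0.00.

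The 4 C/D hosts among the members did not pass in that comparison, whereas RPL7B, a C/D host outside the list, was lower (-0.99 ± 0.13, edgeR adjusted p = 0.000815), so that the split by class depends on which hosts are listed. IMD4, an IMP dehydrogenase of guanine nucleotide synthesis, had a log2 change of 0.02, with an approximate 95% interval of -0.37 to 0.40. Such intervals were made from the SE by a normal approximation, which is too narrow with few libraries. ASC1, the small-subunit scaffold protein known as RACK1 in mammals, was at 265.4 and 305.2 CPM in the starved IDR mutant, against 553.8 and 501.9 CPM in starved wild type (-0.71 ± 0.28, edgeR adjusted p = 0.0862). EFB1 and TEF4 encode subunits of the exchange factor of translation elongation factor 1, and had log2 changes of -0.20 ± 0.12 and -0.30 ± 0.27 (edgeR adjusted p = 0.259 and 0.442). YMR013W-A was at 1.1 and 2.1 CPM in the IDR mutant and 2.0 and 2.9 CPM in wild type. Its approximate 95% interval ran from -1.56 to 0.73 on the log2 scale.

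The same comparison in the interface mutant showed lower RPS22B and YJL047C-A as well. RPS22B was at 103.4 and 89.3 CPM in the starved interface mutant, against 380.5 and 406.6 CPM in starved wild type (-1.93 ± 0.33, edgeR adjusted p = 0.0489). YJL047C-A was at 2.7 and 3.0 CPM in the interface mutant, against 15.4 and 17.4 CPM in wild type (-2.40 ± 0.29, edgeR adjusted p = 0.0122). These are 2 of the 4 features called lower among 5853, or 0.0683%, and 0.41% were called higher. Each call was lost without wild type replicate 1 or 2 or interface mutant replicate 2 (adjusted p of 0.342 to 0.365 for RPS22B and 0.107 to 0.15 for YJL047C-A). YGL088W was at 21.7 and 15.8 CPM in the interface mutant, against 93.2 and 123.8 CPM in wild type, a log2 change of -2.42 ± 0.55 that did not pass (edgeR adjusted p = 0.112) but did in a fit of these groups alone (0.0348) and by DESeq2 (0.00122). NOG2 was at 88.9 and 75.1 CPM in the interface mutant and 100.3 and 119.2 CPM in wild type (-0.31 ± 0.15, edgeR adjusted p = 0.512). The other hosts had log2 changes of -0.58 to -0.24 and did not pass.

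Set against each other, the starved mutants differed in 2 members, both H/ACA hosts. RPS22B was lower in the IDR mutant than in the interface mutant (-1.26 ± 0.33, edgeR adjusted p = 0.0286), and so was NOG2 (-0.73 ± 0.15, edgeR adjusted p = 0.0115), 2 of 9 members where 9.86% of all features were called lower and 10.4% higher. The call for RPS22B was lost without any 1 of the 4 libraries (adjusted p of 0.0584 to 0.176) and that for NOG2 without IDR mutant replicate 1 or 2 or interface mutant replicate 1 (0.0584 to 0.0911). Of 86 intron-containing ribosomal protein genes without a snoRNA gene, 25 were also lower (median -0.67, lowest -1.87 in RPL43B), and 3 lay below RPS22B. For YGL088W the log2 change was -0.12 ± 0.56 and the libraries overlapped. YJL047C-A had 0.67 ± 0.32 (edgeR adjusted p = 0.169). RPS22B thus stood in the order IDR mutant, interface mutant, wild type from low to high in starved cells, with no overlap between neighbours. The share of all features with such an order was not counted.

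**Figure D3:**
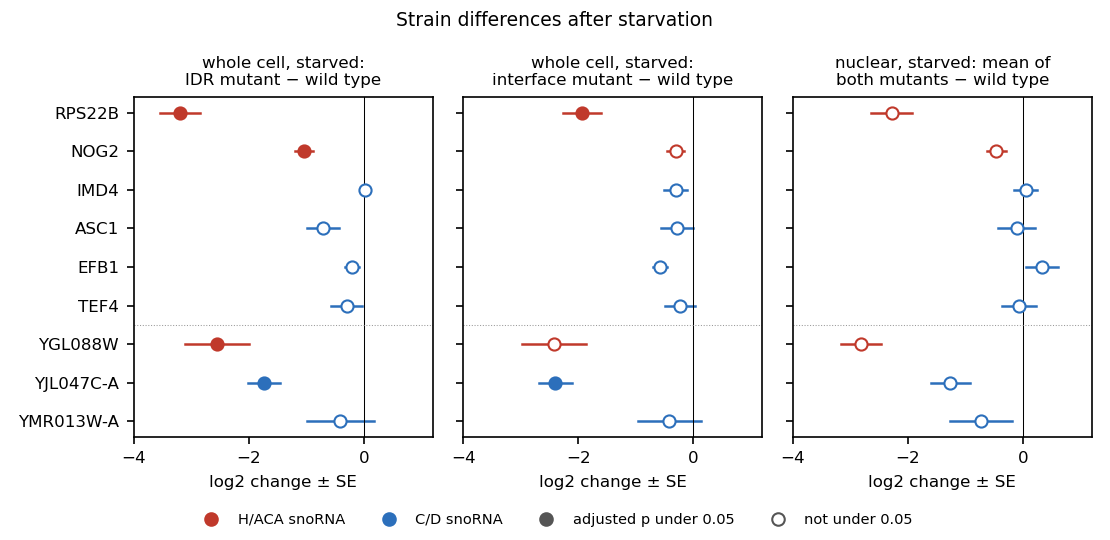
Log2 change ± SE of 9 members for the starved IDR mutant minus wild type and the starved interface mutant minus wild type in whole cells, and for the mean of both mutants minus wild type in nuclear extracts; red marks H/ACA and blue C/D snoRNA genes, filled points have an edgeR adjusted p under 0.05, and the dotted line parts hosts from intronless features. RPS22B, YGL088W and YJL047C-A lie left of -1 in all 3 panels, and the C/D hosts lie between -0.71 and 0.33.

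In unstressed cells the members' values are given as a description. RPS22B was at 92.6 and 87.8 CPM in the unstressed IDR mutant, at 230.2 and 262.4 CPM in the unstressed interface mutant and at 807.8 and 496.8 CPM in unstressed wild type. The order of the strains was that of starved cells, again with no overlap and with no count over all features. The log2 change of the IDR mutant minus wild type was -3.19 ± 0.35, and -2.44 ± 0.14 without wild type replicate 1. YGL088W was at 1.8 and 2.6 CPM in the IDR mutant, at 4.7 and 4.1 CPM in the interface mutant and at 35.0 and 11.4 CPM in wild type. Its log2 change of the IDR mutant minus wild type was -3.78 ± 0.64, and -2.34 ± 0.32 without wild type replicate 1. NOG2 was at 302.3 and 333.9 CPM in the IDR mutant, 414.2 and 438.5 CPM in the interface mutant and 278.0 and 423.9 CPM in wild type, and overlapped between the IDR mutant and wild type. For the IDR mutant minus wild type 0.547% of features were called lower and 1.13% higher.

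The unstressed interface mutant minus wild type gave log2 changes of -1.77 ± 0.33 for RPS22B, -2.84 ± 0.59 for YGL088W and -1.99 ± 0.34 for YJL047C-A, each with edgeR adjusted p = 0.196. No feature passed here (0 of 5853, 0.0%, by edgeR, 1422 at an unadjusted p under 0.05 and 123 by DESeq2), and without wild type replicate 1 the 3 values were -1.02, -1.39 and -2.05.

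Nuclear extracts of starved cells gave values for the same features in other libraries. RPS22B was at 88.7, 105.7 and 38.3 CPM in libraries labelled IDR mutant and at 38.6 and 96.1 CPM in libraries labelled interface mutant, against 359.6 and 456.3 CPM in wild type. The lowest values, in the library labelled IDR mutant replicate 3 and the library labelled interface mutant replicate 1, are near the 41.7 and 34.8 CPM of the starved whole cell IDR mutant. The other 3 are near the 103.4 and 89.3 CPM of the starved whole cell interface mutant. YGL088W was at 24.2, 21.8 and 32.8 CPM in libraries labelled IDR mutant and at 21.4 and 23.5 CPM in libraries labelled interface mutant, against 123.7 and 288.0 CPM in wild type. YJL047C-A was at 3.9 to 6.5 CPM in the 5 mutant libraries, against 12 and 21.1 CPM in wild type. NOG2 was at 88.0 to 144.7 CPM in the mutant libraries, against 184.0 and 168.1 CPM in wild type.

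Since the labels of the nuclear mutants are in doubt, both mutants together were also set against wild type, a comparison added after the data were seen. The log2 change was -2.81 ± 0.35 for YGL088W and -2.28 ± 0.36 for RPS22B, the lowest 2 of 6086 features both by log2 change and by p. With adjusted p of 0.284 and 0.656 by edgeR, neither passed, and no feature did (0 of 6086, 0.0%, with 252 at an unadjusted p under 0.05 and 39 by DESeq2). Over the alternatives, YGL088W passed with all 9 nuclear libraries (adjusted p = 4.07e-05), with the replicate number as a block (0.00375) and without wild type replicate 1 (0.0454). RPS22B passed with all 9 libraries (0.0265), with that block (0.00375) and by DESeq2 (7.99e-06). The near-empty libraries added in the fit of all 9 held 0 counts of YGL088W, and 0 (wild type) and 3 (interface mutant) of RPS22B. That fit thus brings almost no further reads of these members. Replicate 3 was kept only in the IDR mutant, so the block fitted that library by itself. Blocked values therefore rest on replicates 1 and 2. With the block each mutant alone also passed against wild type: RPS22B had -1.93 ± 0.24 in libraries labelled IDR mutant and -2.40 ± 0.25 in those labelled interface mutant (edgeR adjusted p = 0.0281 and 0.0153), and YGL088W -2.95 ± 0.34 and -2.80 ± 0.34 (edgeR adjusted p = 0.0236 and 0.0366). YJL047C-A had -1.26 ± 0.34 and NOG2 -0.46 ± 0.17 (edgeR adjusted p = 0.884 for each), and the C/D hosts lay between -0.11 and 0.33.

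In nuclear extracts each of the 5 mutant libraries was below both wild type libraries for RPS22B, NOG2, YGL088W and YJL047C-A (exact permutation test, two-sided p = 0.0952 for each, the smallest this design allows), which 17.4% of features tested also showed. In starved whole cells all 4 mutant libraries were below both wild type libraries for 8 of the 9 members, all but YMR013W-A (exact permutation test, two-sided p = 0.133 for each of the 8, the smallest this design allows), where 27.5% of features were. These orders are of CPM, without the TMM scaling of the fits. IMD4, for one, was at 144.3 to 186.7 CPM in the mutants and 203.7 and 207.1 CPM in wild type, whereas its TMM-scaled log2 changes from wild type were 0.02 (IDR mutant) and -0.31 (interface mutant).

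The second question was how the members move with starvation within each strain. The unstressed IDR mutant and wild type libraries are those in which RPS22B and YGL088W had been noted. For these 2 members the values within those 2 strains, p-values included, are a description and not a test. In the IDR mutant all 6 hosts were lower in starved than in unstressed cells and all 3 intronless features tested were higher, where 34.3% of features were called lower and 33.0% higher. In the interface mutant 5 of 6 hosts were lower, all but TEF4, and 2 of 3 intronless features higher, against 30.3% and 29.7% of all features. In wild type the counts were again 5 of 6 hosts lower and 2 of 3 intronless features higher, against 34.5% and 31.7%. The median log2 change in wild type was -1.21 for the hosts and 2.04 for the intronless features, where that of all features was -0.05. Intron-containing ribosomal protein genes without a snoRNA gene were lower in 86 of 86 cases in the IDR mutant, in 75 of 86 in the interface mutant and in 84 of 86 in wild type, with medians of -2.24, -1.53 and -2.05, against host medians of -0.99, -1.28 and -1.21.

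**Figure D4:**
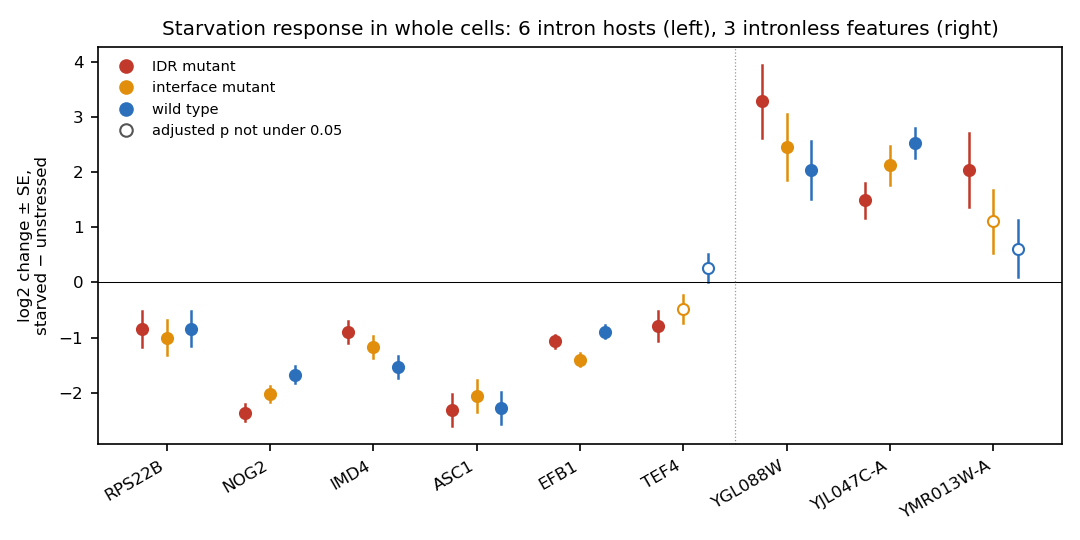
Log2 change ± SE with starvation in whole cells for 9 members in 3 strains, hosts left of the dotted line and intronless features right of it; open points did not have an edgeR adjusted p under 0.05. All hosts but TEF4 in wild type lie below 0, and all intronless features lie above 0.

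Among the intronless features, YGL088W was at 17.9 and 14.8 CPM in the starved IDR mutant, against 1.8 and 2.6 CPM in the unstressed IDR mutant (3.28 ± 0.66, edgeR adjusted p = 0.00178). In the interface mutant it was at 21.7 and 15.8 CPM starved, against 4.7 and 4.1 CPM unstressed (2.45 ± 0.60, edgeR adjusted p = 0.00627). In wild type it was at 93.2 and 123.8 CPM starved, against 35.0 and 11.4 CPM unstressed (2.04 ± 0.53, edgeR adjusted p = 0.00743). Without unstressed wild type replicate 1 the last value was 3.48, and in a fit of these 2 groups alone it did not pass (adjusted p = 0.072). No overlap was seen in any strain, but the share of all features without overlap was not counted. The p-values of YGL088W in the IDR mutant and wild type reuse the libraries in which it had been noted.

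YJL047C-A was at 3.6 and 5.1 CPM in the starved IDR mutant, against 2.6 and 1.5 CPM unstressed (1.49 ± 0.32, edgeR adjusted p = 0.00242). In the interface mutant it was at 2.7 and 3.0 CPM starved, against 0.854 and 0.816 CPM unstressed (2.12 ± 0.36, edgeR adjusted p = 0.000786). In wild type it was at 15.4 and 17.4 CPM starved, against 2.2 and 3.5 CPM unstressed (2.53 ± 0.27, edgeR adjusted p = 4.39e-05). YJL047C-A thus had the same direction in all 3 strains. YMR013W-A passed only in the IDR mutant (2.04 ± 0.67, edgeR adjusted p = 0.0229), where its unstressed libraries held 5 counts each. That call was lost without either unstressed library or without starved replicate 2 (adjusted p of 0.0662 to 0.185). In wild type it had 0.61 ± 0.52 (edgeR adjusted p = 0.323), and 1.51 without unstressed replicate 1 (adjusted p = 0.0282).

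Among the hosts, ASC1 and NOG2 had the lowest log2 changes in each strain, with no settled order between them. ASC1 was at 553.8 and 501.9 CPM in starved wild type, against 2778.6 and 2025.4 CPM in unstressed wild type (-2.28 ± 0.29, edgeR adjusted p = 0.000116), and at -1.70 without unstressed replicate 1. It was at -2.31 ± 0.29 for the IDR mutant and -2.05 ± 0.29 for the interface mutant. NOG2 was at 48.4 and 45.6 CPM in the starved IDR mutant, against 302.3 and 333.9 CPM unstressed (-2.36 ± 0.16, edgeR adjusted p = 1.33e-06). It was at -2.02 ± 0.15 in the interface mutant and -1.67 ± 0.15 in wild type (edgeR adjusted p = 4.23e-06 and 1.47e-05). IMD4 fell by 0.90 on the log2 scale in the IDR mutant, by 1.17 in the interface mutant and by 1.53 in wild type. EFB1 fell by 1.07 in the IDR mutant, by 1.40 in the interface mutant and by 0.89 in wild type.

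RPS22B was lower in starved cells of each strain, a result that rests on single libraries. For the IDR mutant and wild type it also reuses the libraries in which RPS22B had been noted. RPS22B had -0.84 ± 0.33 in the IDR mutant, -1.0 ± 0.32 in the interface mutant and -0.84 ± 0.32 in wild type (edgeR adjusted p = 0.0465, 0.0242 and 0.0416). The call was lost in both mutants without any 1 library (adjusted p of 0.1 to 0.183 for the IDR mutant, 0.0504 to 0.114 for the interface mutant). In wild type it was lost without unstressed replicate 1 (-0.09, adjusted p = 0.579) and without either starved replicate (0.151 and 0.114), while without unstressed replicate 2 it was at -1.34 (adjusted p = 6.74e-06). TEF4 was at 408.1 and 438.1 CPM in the starved IDR mutant, against 923.3 and 1011.1 CPM unstressed (-0.79 ± 0.27, edgeR adjusted p = 0.0242), a call lost without any 1 library (0.0557 to 0.114). In wild type TEF4 was at 600.6 and 576.9 CPM starved and 270.4 and 774.0 CPM unstressed, with the starved values between the unstressed ones (0.26 ± 0.26, edgeR adjusted p = 0.411). It was at -0.15 without unstressed replicate 1 and at 0.82 without unstressed replicate 2 (adjusted p = 0.324 and 0.000294).

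The difference of the responses between strains was tested as an interaction. For the interface mutant minus wild type no member passed by edgeR, and 0.0171% of features did, with log2 differences of -0.73 (TEF4) to 0.51 (YMR013W-A). For the IDR mutant minus wild type, where 11.7% of features passed and no member did by edgeR, the members' differences ran from -1.05 (TEF4) to 1.43 (YMR013W-A), with 1.23 ± 0.83 for YGL088W, -1.04 ± 0.42 for YJL047C-A and -0.69 ± 0.21 for NOG2, given as a description.

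Summed over members, the 6 hosts took 0.149% and 0.153% of counts in the starved IDR mutant, 0.165% and 0.161% in the starved interface mutant and 0.252% in each starved wild type library. The intronless features took 0.00227% and 0.00220% in the starved IDR mutant, 0.00261% and 0.00205% in the starved interface mutant and 0.0111% and 0.0144% in starved wild type. In unstressed cells the hosts took 0.492% to 0.555% in the mutants and 0.576% and 0.579% in wild type, the highest in wild type.

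The third question was how members are distributed between the nuclear extract and whole cells after starvation. Fraction and library series cannot be told apart. NOG2 was at 143.8, 144.7 and 93.3 CPM in nuclear libraries labelled IDR mutant, against 48.4 and 45.6 CPM in whole cells (1.21 ± 0.17, edgeR adjusted p = 0.00923). EFB1 was at 656.7 and 1091.4 CPM in nuclear libraries labelled interface mutant, against 447.5 and 411.5 CPM in whole cells (0.96 ± 0.25, edgeR adjusted p = 0.0137). These were the only members called in any strain, where 4.63% of features were called higher and 4.98% lower in the IDR mutant. For the interface mutant these shares were 17.3% and 17.0%, and for wild type 17.0% and 14.0%. The call for NOG2 was lost without either whole cell library (adjusted p = 0.0886 and 0.15). The call for EFB1 was lost without either whole cell library, without nuclear replicate 2, in a fit of these groups alone and with all 9 nuclear libraries (0.0579 to 0.0885). NOG2 had 0.46 ± 0.18 in wild type (edgeR adjusted p = 0.0715) and 0.08 ± 0.18 in the interface mutant.

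RPS22B and YGL088W did not pass between fractions. The log2 change of RPS22B, nuclear minus whole cell, was 0.77 ± 0.37 in libraries labelled IDR mutant, -0.61 ± 0.39 in those labelled interface mutant and -0.16 ± 0.39 in wild type (edgeR adjusted p = 0.188, 0.245 and 0.782). That of YGL088W was 0.50 ± 0.38, 0.21 ± 0.40 and 0.72 ± 0.38 in the same order (edgeR adjusted p = 0.407, 0.705 and 0.167). In wild type YGL088W was at 1.24 without nuclear replicate 1 and at -0.08 without nuclear replicate 2, so its sign rests on single libraries. RPS22B in the IDR mutant was at 1.04 without nuclear replicate 3 (adjusted p = 0.042). In the interface mutant it was at -0.17 without nuclear replicate 1 and at -1.26 without nuclear replicate 2 (adjusted p = 0.777 and 0.054).

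The paralogs of the hosts give a comparison inside each library, since RPS22A encodes the same ribosomal protein as RPS22B and holds no snoRNA gene. There were 0.134 and 0.112 RPS22B counts per RPS22A count in the starved IDR mutant, 0.187 and 0.2 in the starved interface mutant and 0.724 and 0.745 in starved wild type. In nuclear extracts the ratio was 0.188, 0.247 and 0.162 in libraries labelled IDR mutant, 0.127 and 0.241 in those labelled interface mutant and 0.717 and 1.14 in wild type. In both fractions all mutant libraries were below both wild type libraries. The share of other gene pairs with that order was not counted. By CPM of single features, 27.5% had it in starved whole cells and 17.4% in nuclear extracts. In unstressed cells the ratio was 0.0422 and 0.0412 for the IDR mutant, 0.121 and 0.120 for the interface mutant and 0.131 and 0.199 for wild type. The interface mutant was thus near wild type replicate 1 there, in which RPS22A was at 6182.1 CPM. RPS22A did not differ past the threshold between starved strains (IDR mutant minus wild type -0.61 ± 0.45, edgeR adjusted p = 0.344), nor did IMD2, IMD3 and CAM1, the paralogs of IMD4 and TEF4 (-0.32 to 0.10). Reads of RPS22A and RPS22B that fit both genes may have been split in the counting. The RPS22B feature of 1440 nt includes the 483 nt intron with SNR44 and holds 832 nt upstream of SNR44. How much of that upstream stretch is coding was not examined. The ratio is therefore not one of coding reads alone, and reads outside the coding part cannot be tied to SNR44 alone.

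**Figure D5:**
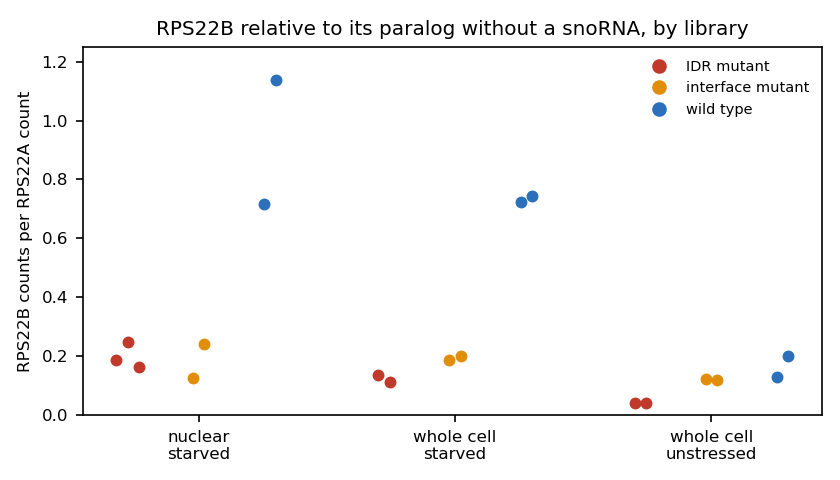
RPS22B counts per RPS22A count, 1 point per library, by fraction, condition and strain. In starved cells the mutants lie between 0.112 and 0.247 in both fractions, and wild type between 0.717 and 1.14. The share of other gene pairs separated in this way was not counted.

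Intron-containing genes without a snoRNA show how far RPS22B stands from its class. For the starved IDR mutant minus wild type, 13.3% of all features tested were called lower and 15.9% higher. For the starved interface mutant these shares were 0.0683% and 0.41%. Of 86 intron-containing ribosomal protein genes without a snoRNA gene, 36 were lower and 0 higher when the starved IDR mutant was set against wild type (median -0.76). Their log2 changes ran from -1.89 (RPL43B) to 0.27 (RPS4B), all above the -3.19 of RPS22B. In the starved interface mutant 0 of 86 passed (median -0.10, lowest -0.78 in RPL18B), against -1.93 for RPS22B. Of 173 other intron-containing genes tested, 37 were lower and 13 higher in the starved IDR mutant (median -0.19). RPL7B, which holds the C/D gene SNR59 in an intron, was at 97.4 and 91.1 CPM in the starved IDR mutant, against 210.4 and 212.2 CPM in starved wild type (-0.99 ± 0.13, edgeR adjusted p = 0.000815). RPL7A, which holds SNR39, had -0.34 ± 0.12 (edgeR adjusted p = 0.0673). Of 20 features tested that start within 500 nt downstream of a snoRNA gene on its strand, 2 were lower and 2 higher (median -0.10).

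Genes of the proteins that form, assemble and process snoRNA particles were followed in the same comparisons. Among all features, 13.3% were called lower and 15.9% higher for the starved IDR mutant minus wild type. Of 8 core proteins of C/D and H/ACA particles, 3 were lower and 0 higher for the starved IDR mutant minus wild type (median -0.75). They were the H/ACA proteins NHP2 (-1.20 ± 0.28) and GAR1 (-1.38 ± 0.33) and the methyltransferase of C/D particles NOP1 (-0.82 ± 0.20), with edgeR adjusted p = 0.0116, 0.0131 and 0.0145. Of 10 assembly factors 4 were lower (median -0.68), among them RVB1 and RVB2, paired ATPases (-1.10 ± 0.19 and -0.87 ± 0.18), and SHQ1, an H/ACA chaperone (-0.83 ± 0.17). In the starved interface mutant 0 of these 18 genes passed, where 0.0683% of all features were called lower and 0.41% higher. With starvation in wild type, 6 of 8 core proteins (median -1.11) and 8 of 10 assembly factors (median -1.13) were lower, and none was higher. Among all features 34.5% were lower there and 31.7% higher. Before starvation TAH1, an assembly factor, was lower for the IDR mutant minus wild type (-2.56 ± 0.46, edgeR adjusted p = 0.0297) and SNU13, a core protein, was higher (0.90 ± 0.18, edgeR adjusted p = 0.0466). The 98 calls of that comparison became 0 in a fit of those groups alone and ran from 0 to 3807 with 1 library left out.

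Of 20 genes of snoRNA processing, end formation and decay, 5 were lower and 1 higher for the starved IDR mutant minus wild type (median -0.37). DBR1, the enzyme that opens intron lariats and so frees intronic snoRNAs, was the higher one (1.00 ± 0.15, edgeR adjusted p = 0.00133). MTR4, the helicase of nuclear exosome cofactors, and PCF11, a termination factor, were lower (-1.14 ± 0.16 and -0.66 ± 0.13, edgeR adjusted p = 0.00101 and 0.00577). Among all features of that comparison 13.3% were called lower and 15.9% higher. In the starved interface mutant 0 of the 20 passed, where 0.0683% of all features were called lower and 0.41% higher. With starvation in wild type 7 rose and 8 fell, near the shares among all features (31.7% higher and 34.5% lower), LHP1, TRF5 and AIR1 with the smallest adjusted p (-1.62 ± 0.15, -2.42 ± 0.28 and -2.56 ± 0.30).

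Across the 19 libraries with enough depth, each member was set beside the features most like it in log2(CPM + 1). Most of those were not over a snoRNA gene, but only 12 of the 6600 counted features are. The likeness is a description, since all points share libraries and depth. RPS22B was most like THP3, a factor of messenger RNA maturation (Pearson r = 0.962 among 5860 features), then LSM2 and USB1, genes of U6 RNA metabolism (0.877 and 0.875). THP3 itself was lower for the starved IDR mutant minus wild type (-0.84 ± 0.17, edgeR adjusted p = 0.00559), and had -0.51 ± 0.16 in the starved interface mutant (edgeR adjusted p = 0.258). YGL088W and YJL047C-A were most like each other and MRX4, with r = 0.888 between the 2 and 0.904 and 0.886 with MRX4. Among hosts NOG2, IMD4, ASC1 and EFB1 had r of 0.77 to 0.944 with each other, while RPS22B had 0.38 to 0.595 with these 4. ASC1 was most like the ribosomal protein genes RPS8B and RPS8A (0.994 each), and NOG2 like MSB4 (0.984). IMD4 was most like MCM16 (0.978), EFB1 like MEF1 (0.954), TEF4 like FCP1 (0.96) and YMR013W-A like VPS53 (0.801).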

How the data were processed

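Per the file headers, the deposited counts are whole reads per gene feature, introns included, made by the authors with featureCounts 2.0.1 on annotation R64-2-1, reverse-stranded. Multi-mapping reads were allowed in fractional form, per the file headers, although all values are whole, and reads over several genes were left out. Adapters were trimmed with cutadapt and reads aligned with TopHat2 per the submitters' processing notes, with versions not given in the sources used here. Features were placed against snoRNA genes of RefSeq assembly R64, which matched 5917 of 6600 features by locus name. RPL7A and RPL7B meet the overlap rule and were kept as comparators.

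Counts were tested with edgeR 4.0.16 (R 4.3.3): its quasi-likelihood test on TMM-scaled libraries, over features kept by filterByExpr at a minimum count of 10. Adjusted p-values are Benjamini-Hochberg values over all features tested, with a threshold of 0.05. Whole cell, nuclear and starved libraries of both fractions were fitted apart, without a replicate block. Same-numbered nuclear replicates deviated together, with correlations of 0.18 to 0.49 in all 3 pairs of nuclear groups. That pairing comes from the data, not the labels, and was checked after the blocked fits were seen. Errors of log2 changes are SE. Libraries under 0.2 of the median nuclear total were left out. Alternatives were DESeq2 1.42.0, its size factors, no filter, a replicate block, the compared groups alone, all 9 nuclear libraries and each library left out. The scripts' test was run on simulated counts with the same spread for all features and no outlying library. That run does not speak for the spread between the libraries used here. The members and lists were chosen with earlier results of these data known. The text names all members, up to 3 genes of each list of snoRNA particle proteins, assembly factors and processing genes with the smallest adjusted p in a comparison, the host paralogs, and for each member at least the feature with the most similar profile. Motifs and profiles were computed with Python 3.11.15 (pandas 2.3.3, numpy 2.4.6).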

Additional observations from a re-analysis of the deposited data

How the results depend on the processing

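Over the 72 single-member results for which alternatives were run (no interaction, and between strains mainly RPS22B, NOG2, YGL088W and YJL047C-A), 600 alternatives kept direction and side of the threshold, 28 passed only under an alternative, 52 were lost and 8 changed sign; no cause was tested. The sign changes came with 1 library left out: TEF4 with starvation in wild type ran from -0.15 to 0.82, NOG2 in the unstressed interface mutant minus wild type from -0.02 to 0.09, YGL088W in the starved IDR mutant minus interface mutant from -0.34 to 0.12, and, nuclear minus whole cell, RPS22B in wild type from -0.4 to 0.04, YGL088W in wild type from -0.08 to 1.24, NOG2 in the interface mutant from -0.05 to 0.19 and YGL088W there from -0.01 to 0.44.

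For same-numbered whole cell replicates, deviations from group means correlated with both signs, at -0.53 to 0.33 over 15 pairs of groups, 3 above 0.1. With nuclear ones they correlated at -0.11 to 0.11 over 9 pairs. Between nuclear groups such deviations correlated at 0.18 to 0.49 in all 3 pairs. Nuclear replicate 3 was kept only in the IDR mutant, so a block fits that library by itself and gives it no weight. With the replicate number as a block, 4, 2 and 2 nuclear features passed for the IDR mutant, the interface mutant and both mutants minus wild type (0 each without it), 1197 for nuclear minus whole cell in the IDR mutant (571 without) and 1286 for its difference from wild type (83). In whole cells the block lost RPS22B with starvation in wild type (adjusted p = 0.0511) and in the starved interface mutant minus wild type (0.0626); between fractions RPS22B in the IDR mutant and NOG2 in wild type passed with it (0.0335 and 0.0406). With all 9 nuclear libraries the nuclear counts were 1, 1 and 2 and that difference 159.

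Fitted with the compared groups alone, 2473 features passed for starvation in wild type (3876 in all groups), 0 for unstressed IDR mutant minus wild type (98), 641 for unstressed IDR mutant minus interface mutant (11), 3575 for starved IDR mutant minus wild type (1710), 46 for starved interface mutant minus wild type (28), 248 and 0 for the starvation response of the IDR and interface mutants minus wild type (687 and 1), 766 for nuclear minus whole cell in the interface mutant (2040) and 226 for that of the IDR mutant minus wild type. DESeq2 gave 1328, 123 and 114 for the unstressed IDR mutant and interface mutant minus wild type and for one minus the other, 219 for the starved interface mutant minus wild type, 1164 and 149 for the responses, 13, 14 and 39 for the nuclear IDR mutant, interface mutant and both minus wild type, 1009 for nuclear minus whole cell in the IDR mutant and 631 for its difference from wild type.

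With 1 library left out, counts ran from 3136 to 4555, 3235 to 3324 and 2690 to 3188 for starvation in wild type, the IDR mutant and the interface mutant. They ran from 0 to 3807 and 0 to 3655 for the unstressed IDR and interface mutants minus wild type (129 and 0 without unstressed wild type replicate 1), 0 to 2 for one minus the other, 796 to 991, 0 to 288 and 207 to 836 for the same starved pairs, 32 to 3209 and 0 to 3274 for the responses, 0 to 1 for both nuclear mutants, 500 to 1608, 2 to 1071 and 1100 to 1711 for nuclear minus whole cell in wild type, IDR and interface mutants, and 0 to 1134 and 0 to 55 for the mutants' differences from wild type. IRC13 and YMR013W-A are limited by depth.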
